A study of Yarrowia lipolytica with 35 samples.

Results

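Stationary-phase and growth-phase transcriptomes of the yeast Yarrowia lipolytica strain DSM-21175 on glycerol were compared in 6 of the 35 RNA-seq libraries of a bioreactor study. The 6 libraries were chosen by their labels alone, 3 from the growth phase at 8 h and 3 from the stationary phase at 32 h, when nitrogen was limiting. All 6 cultures had glycerol as their only carbon source and were kept at pH 5.5, so the groups differ in phase and hour together, and these cannot be told apart. The remaining libraries come from the same strain at pH 3.5 or on glucose, and from a further strain, DSM-3286. Of those, 12 libraries were used to ask whether the change with phase differed. They are DSM-3286 on glycerol at 8 h and 32 h, and DSM-21175 on glucose at 12 h and 32 h, all at pH 5.5 with 3 libraries a group. The labels give a strain name and no genotype. The study text calls the samples biological triplicates without saying whether each came from its own reactor run. Unless another fit is named, the p-values below rest on a spread between replicate libraries that all 35 libraries estimate together.

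Y. lipolytica is an oleaginous yeast that grows well on glycerol and is known for secreting citrate, erythritol and mannitol and for storing lipid when nitrogen runs out. Glycerol enters central metabolism through glycerol kinase and a mitochondrial glycerol-3-phosphate dehydrogenase, is converted to dihydroxyacetone phosphate, and from there flows down glycolysis or up through gluconeogenesis into the pentose phosphate pathway and the polyols. In the textbook account of oleaginous yeasts, nitrogen shortage slows the citric acid cycle at isocitrate, citrate leaves the mitochondrion, and ATP citrate lyase cleaves it to the acetyl-CoA used for fatty acids. The groups below follow that order, from uptake to carbon metabolism, lipid, nitrogen and regulators.

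The 3 growth libraries held 9220616 to 12546196 counted reads, and the 3 stationary ones held 11641195 to 11905829. Replicates correlated at r = 0.978 to 0.991 on log2 CPM across genes, which are not independent replicates. Growth replicate 2 and stationary replicate 3 stood somewhat apart: 341 and 368 genes in them were 2-fold or more from the mean of the other replicates, against 202 to 226 in the other 4 libraries. Results that move without these 2 libraries are given both ways. Bulk RNA cannot tell fewer cells with a transcript from less transcript per cell. Levels are counts-per-million values (CPM), scaled by the trimmed mean of M values, and changes are log2 fold changes ± SE for 32 h minus 8 h, with n = 3 a group. A gene was called higher or lower when its adjusted p was under 0.05. Unless another fit is named, each adjusted p comes from the quasi-likelihood test of edgeR, fitted to all 35 libraries. Benjamini-Hochberg adjustment was over the 6537 genes tested. Where libraries were left out, the same test was adjusted over the genes that passed the filter on low counts in that fit. The SEs are approximate. Each was worked back from the change and the strength of its test, so it need not follow the spread between replicates. For the gene YHT1 it was 0.63 in the main fit and 0.22 with the 6 libraries fitted alone. For DAK2 the SE of the difference between strains (0.63) was below that of the change in DSM-21175 (0.68). The 71 gene symbols in the deposited log2 table were paired with locus tags by their matching values. Every other gene name was paired with its locus tag from knowledge of published Y. lipolytica names, which the files do not carry, and is to that extent unverified.

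Between 8 h and 32 h most of the transcriptome shifted. Of the 6537 genes tested, 4995 were called (76.4%), 2437 higher (37.3%) and 2558 lower (39.1%) at 32 h. At least 2-fold changes were called in 1396 genes upward (21.4%) and 1286 downward (19.7%). Large changes were more often rises: 396 genes were called at least 8-fold higher and 177 at least 8-fold lower, and beyond 32-fold the counts were 149 and 51. The 3 libraries of each phase did not overlap for 4907 genes (75.1%), and the median change over all genes was -0.029. Scaling between libraries holds this median near 0, so changes are relative to the other transcripts. A shift in total mRNA per cell would not show. With so many genes called, a list with most members called is near the background, and direction and size carry the description below. Without growth replicate 2 and stationary replicate 3, 4764 genes were called, of which 4605 had the same call with all libraries.

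**Figure D1:**
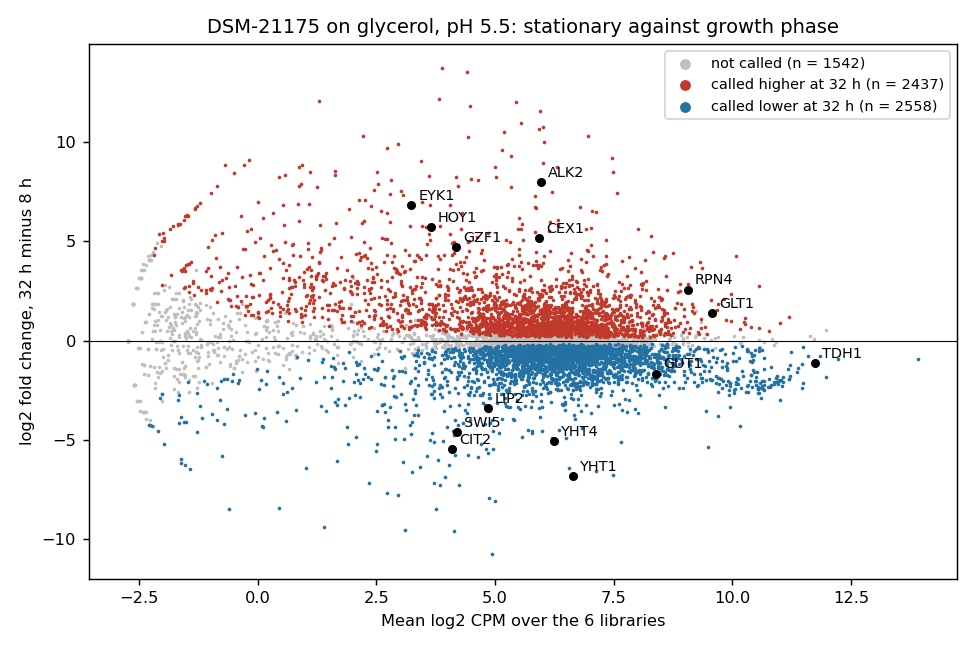
Log2 fold change of each tested gene (32 h minus 8 h, vertical axis) against its mean log2 CPM over the 6 libraries (horizontal axis), each point a gene, red called higher (n = 2437), blue called lower (n = 2558) and grey not called (n = 1542). The points spread further upward than downward, and named genes described in the text are marked in black.

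The transcripts most abundant in growth were mainly reduced. Of the 10 genes with the highest level per length (FPKM, which divides reads by gene length and library size) in growth, 9 fell, 0 rose and 1 was not called, with log2 fold changes from -2.25 to 0.21. Among the 10 highest at 32 h, 5 had risen, 3 had fallen and 2 were not called, and 4 genes stood in both sets. Ranked by reads instead, the top 10 genes of a library held 6.66 to 6.82% of its reads in growth and 5.32 to 5.92% at 32 h.

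Hexose transporters, which import glucose and fructose across the plasma membrane, included the largest fall of any named gene. YHT1 (YALI0C06424g) stood at 992, 1065 and 1133 CPM in the growth libraries and at 8.07, 7.85 and 12.4 CPM at 32 h. This was a 113-fold fall (log2 fold change -6.81 ± 0.63, adjusted p = 4.46e-10), with every stationary library far below every growth library. YHT4 (YALI0E23287g) went from 422, 354 and 548 CPM to 10.4, 13.3 and 15.8 CPM, a fall of 33.5-fold (-5.07 ± 0.23). Both genes were abundant in growth although glycerol was the only carbon source supplied. YHT3 rose from 3.67 ± 1.70 to 8.84 ± 2.02 CPM (mean ± SD; 1.27 ± 0.34, adjusted p = 0.00156). The fourth transporter, YHT2, was near the floor with 3 reads in all growth libraries and 4 in all stationary ones, a depth-corrected ratio of 0.960 with a 95% exact interval of 0.162 to 6.55, which covers counting error only. Counting list members, 1 of 4 transporters was higher, 2 were lower and 1 was not called.

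Of 5 genes of glycerol utilisation 4 fell and 1 rose, with a median change of -1.05. GUT1 (YALI0F00484g), the glycerol kinase that commits glycerol to metabolism, was at 655, 434 and 739 CPM in growth and 202, 193 and 183 CPM at 32 h (-1.66 ± 0.16, adjusted p = 1.07e-10). GUT2 (YALI0B13970g), the mitochondrial dehydrogenase that follows it, was at 789.6, 570.3 and 639 CPM and then 223, 179 and 267 CPM (-1.58 ± 0.16). The falls were 3.16-fold and 2.99-fold, with no overlap between phases for either enzyme. GPD1, the cytosolic glycerol-3-phosphate dehydrogenase, fell by less (-0.77 ± 0.097), and the dihydroxyacetone kinase gene DAK1 fell from 491 ± 42.7 to 237 ± 12.5 CPM (-1.05 ± 0.15). The other dihydroxyacetone kinase gene, DAK2, was the exception and scattered widely. Its growth libraries read 1.32, 0.703 and 4.92 CPM and its stationary libraries 15.8, 20.3 and 1.46 CPM, so the phases overlapped through growth replicate 3 and stationary replicate 3. DAK2 was called higher (2.52 ± 0.68, adjusted p = 0.00164). Without growth replicate 3 its change was 3.65, and fitting these 6 libraries alone left it uncalled (adjusted p = 0.075). Without growth replicate 2 and stationary replicate 3 the change was 2.55 and still called.

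Glycolysis and gluconeogenesis fell almost throughout, with 13 of 14 listed genes called lower, 1 called higher, and a median change of -1.09. Near its lower end, enolase ENO1 (YALI0F16819g) read 2044, 1263 and 1843 CPM in growth against 467, 422 and 445 CPM at 32 h (-1.95 ± 0.15), and pyruvate kinase PYK1 read 1339.6, 1264 and 1221 CPM against 326, 309 and 401 CPM (-1.88 ± 0.13). Near its upper end, the phosphoglucose isomerase gene PGI1 went from 632 ± 129 to 222 ± 25.1 CPM (-1.51 ± 0.14). The highest-expressed member, the glyceraldehyde-3-phosphate dehydrogenase TDH1 (YALI0C06369g), dropped from 5086 ± 584 to 2297 ± 186 CPM (-1.15 ± 0.089). Enzymes of gluconeogenesis fell as well. Fructose-1,6-bisphosphatase FBP1 fell by 1.30 on the log2 scale and phosphoenolpyruvate carboxykinase PCK1 (YALI0C16995g) fell by 2.11. PCK1 values were 152, 109 and 146 CPM and then 23.8, 28.8 and 42.0 CPM. Pyruvate carboxylase PYC1 (YALI0C24101g), which makes oxaloacetate from pyruvate, was the single member that rose, from 998, 617 and 898 CPM to 2034, 1968 and 1592 CPM (1.15 ± 0.18, adjusted p = 1.09e-06).

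Some of the smaller falls lost their call when 1 library was left out. Hexokinase HXK1 (-0.31 ± 0.14, adjusted p = 0.0498) lost its call without growth replicate 2 (adjusted p = 0.153), growth replicate 3 (0.0863) or stationary replicate 2 (0.132). Phosphofructokinase PFK1 (-0.35 ± 0.13, adjusted p = 0.0171) lost it without growth replicate 1 (0.0524) or growth replicate 3 (0.0870). In these fits, in the same order, HXK1 still changed by -0.25, -0.31 and -0.27, and PFK1 by -0.31 and -0.27.

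Genes of the pentose phosphate pathway, which supplies NADPH and the sugar phosphates from which erythritol is made, moved in both directions. Transketolase TKL1 (YALI0E06479g) rose from 1016, 722 and 942 CPM to 1994, 1643 and 1424 CPM (0.92 ± 0.15), and ribulose-phosphate 3-epimerase RPE1 rose from 250.4 ± 34.5 to 393 ± 73.5 CPM (0.65 ± 0.10). The NADPH-forming 6-phosphogluconate dehydrogenase GND1 went the other way, from 2031, 1671 and 1695 CPM to 1217, 1143 and 817 CPM (-0.76 ± 0.11), as did transaldolase TAL1 (-0.67 ± 0.089) and, by a smaller step, the isomerase RKI1 (-0.34 ± 0.086). Glucose-6-phosphate dehydrogenase ZWF1 (-0.25 ± 0.13, adjusted p = 0.0913) and the lactonase SOL3 (-0.060 ± 0.076, adjusted p = 0.475) were not called. ZWF1 was called lower without stationary replicate 1 (-0.36, adjusted p = 0.0337). Of the 7 members, 2 were higher and 3 lower, with a median change of -0.25.

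Erythritol breakdown genes showed some of the largest rises of any named gene. The 4 enzymes of erythritol catabolism listed here have locus tags that follow one another: the isomerase EYI1 (YALI0F01584g), the erythrulose kinase EYK1 (YALI0F01606g), the isomerase EYI2 (YALI0F01628g) and the erythritol dehydrogenase EYD1 (YALI0F01650g). EYK1 read 1.32, 0.0878 and 2.76 CPM in the growth libraries and 187, 227 and 15.4 CPM at 32 h (6.801 ± 0.83, adjusted p = 5.61e-08). EYD1 read 1.76, 0.0878 and 13.8 CPM and then 604, 631 and 24.4 CPM (6.43 ± 1.001), and EYI2 read 0.770, 0 and 6.47 CPM and then 326, 389 and 30.4 CPM (6.82 ± 0.83). All 3 share one pattern among the libraries: stationary replicates 1 and 2 were high, stationary replicate 3 was at least 10-fold lower, growth replicate 2 was at or near 0 and growth replicate 3 was the highest of its group. EYI1 followed the same order with a narrower span, 8.58, 6.50 and 16.3 CPM against 173, 187 and 41.8 CPM (3.70 ± 0.36). The phases did not overlap for any of the 4 genes, but for EYD1 growth replicate 3 and stationary replicate 3 lay within 2-fold of each other.

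Because the libraries differ so much, the size of these rises depends on which are kept. Without growth replicate 3 the change of EYK1 was 7.78, of EYI2 9.46 and of EYD1 8.94, and without growth replicate 2 they were 6.14, 6.13 and 5.78. With growth replicate 2 and stationary replicate 3 both left out, EYK1 changed by 6.68 (adjusted p = 3.60e-10) and EYD1 by 6.33 (adjusted p = 2.39e-07). Fitting the 6 libraries alone left EYK1, EYI2 and EYD1 called, with much larger adjusted p (0.008713, 0.01129 and 0.02535). EUF1 (YALI0F01562g), the transcription factor known to activate this gene group on erythritol, fell from 108, 71.2 and 125 CPM to 44.1, 60.4 and 39.4 CPM (-1.08 ± 0.16); the factor and the 4 enzyme genes moved in opposite directions.

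On the synthesis side of the polyols the changes were smaller. Among 3 candidate erythrose reductase genes, YALI0D07634g was not called (0.13 ± 0.19, adjusted p = 0.555), YALI0F18590g fell by 0.95 and YALI0C13508g fell by 0.84 on the log2 scale. The mannitol dehydrogenase gene SDR1 rose from 4.38 ± 1.07 to 18.0 ± 4.22 CPM (2.03 ± 0.38). The much more abundant mannitol dehydrogenase gene SDR2 was not called, at 375, 234 and 252 CPM in growth and 399, 309 and 293 CPM at 32 h (0.22 ± 0.18, adjusted p = 0.282). It was called higher without growth replicate 1 (0.46, adjusted p = 0.0328). Over the 10 genes of erythritol and mannitol metabolism, 5 were higher, 3 lower and 2 not called, with a median change of 1.12.

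**Figure D2:**
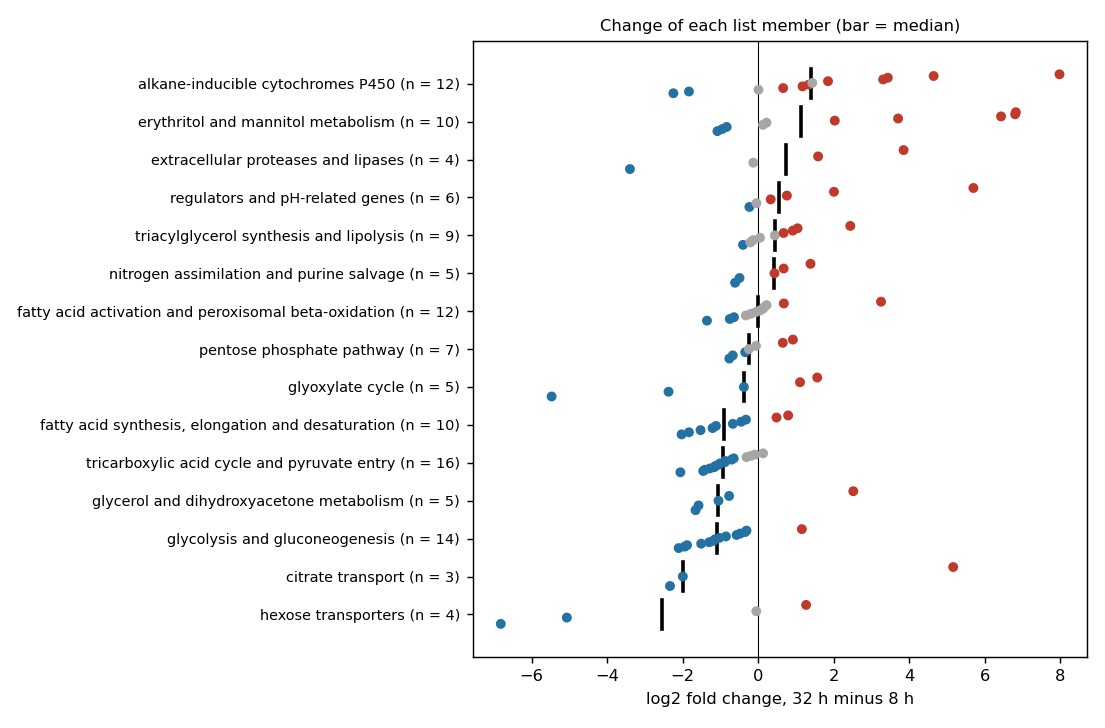
Log2 fold change (32 h minus 8 h, horizontal axis) of every member of the 15 gene lists, each point a gene, red called higher, blue called lower and grey not called, with a black bar at the list's median. The erythritol and ALK lists reach furthest to the right and the hexose transporters furthest to the left, while the medians of glycolysis and the citric acid cycle lie left of 0.

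The citric acid cycle and the pyruvate dehydrogenase complex that feeds it fell or were not called. Of 16 listed genes 12 were lower, 0 were higher and 4 were not called, with a median change of -0.94. Pyruvate dehydrogenase subunit PDB1 (YALI0E27005g) dropped furthest, from 879.7, 670.1 and 799.9 CPM to 186, 169 and 208 CPM (-2.06 ± 0.12). The partner subunit PDA1 of the same complex fell by 0.65. Isocitrate dehydrogenase, the step at which the cycle slows in the textbook account, fell in both subunits. IDH1 read 672, 690.3 and 616 CPM and then 244, 244 and 253 CPM (-1.42 ± 0.081), and IDH2 read 463, 426 and 408 CPM and then 153, 158 and 161 CPM (-1.46 ± 0.10). These were falls of 2.67-fold and 2.74-fold, with close replicates in both phases. Succinyl-CoA ligase subunit LSC2 also fell (-1.28 ± 0.11), as did aconitase ACO1 (-1.01 ± 0.13).

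For the 2-oxoglutarate dehydrogenase complex no fall was called with all libraries. Its subunit KGD1 was at 655, 449 and 576 CPM in growth and 532, 462 and 583 CPM at 32 h (-0.091 ± 0.12, adjusted p = 0.494), and KGD2 (-0.19 ± 0.13), the shared subunit LPD1 (0.13 ± 0.17) and the ligase subunit LSC1 (-0.31 ± 0.15) were also not called. Growth replicate 2 was the lowest growth library for KGD1, KGD2, LPD1 and LSC1, and without it KGD2 (-0.37) and LSC1 (-0.52) were called lower. With stationary replicate 3 left out too, KGD1 was also called lower (-0.31, adjusted p = 0.0316). The mitochondrial malate dehydrogenase MDH1 was called lower (-1.17 ± 0.32) from 408, 93.7 and 289.5 CPM to 126, 128 and 97.3 CPM, with growth replicate 2 below all stationary libraries. Fitting the 6 libraries alone left MDH1 uncalled (adjusted p = 0.102).

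Glyoxylate cycle genes, which let cells build sugars from acetyl-CoA, diverged, with 2 of 5 higher, 3 lower and a median change of -0.38. The median was -0.226 without growth replicate 1 and -0.55 without growth replicate 2. Without growth replicate 2 and stationary replicate 3 it was -0.553, with 1 gene higher and 3 lower. Of the listed citrate synthase genes, CIT2 (YALI0E00638g) fell from 127, 75.8 and 144 CPM to 2.06, 3.78 and 1.98 CPM, a 44.3-fold fall (-5.47 ± 0.32, adjusted p = 9.16e-15), while CIT1 (YALI0E02684g) fell by 0.70 on the log2 scale and kept 339 ± 7.19 CPM at 32 h. Which of these tags bears which number could not be checked, so both values belong to the tags rather than to an established isoform. The malate dehydrogenase gene MDH2 (YALI0E14190g) read 1161, 986 and 1287 CPM and then 239.6, 232 and 190.4 CPM (-2.37 ± 0.10). The malate synthase genes rose, MLS1 from 158, 114 and 159 CPM to 303, 319 and 303 CPM (1.11 ± 0.17) and the low-expressed MLS2 from 2.83 ± 0.789 to 8.21 ± 2.32 CPM (1.56 ± 0.50), a call lost without growth replicate 2 and stationary replicate 3 (adjusted p = 0.133). Isocitrate lyase ICL1, the entry enzyme of the cycle, changed least (-0.38 ± 0.14, adjusted p = 0.0194), with overlapping phases, and lost its call without growth replicate 1 (0.183) or growth replicate 3 (0.0571).

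Among 3 citrate carriers the exporter of the plasma membrane rose and both mitochondrial carriers fell. CEX1 (YALI0D20196g), the plasma membrane citrate exporter, stood at 8.91, 11.6 and 9.95 CPM in growth and at 406, 368 and 318 CPM at 32 h. The exporter thus rose 35.8-fold (5.16 ± 0.31, adjusted p = 1.49e-14), with no overlap between phases. CTP1 (YALI0F26323g), a citrate carrier of the inner mitochondrial membrane, fell from 285, 296 and 278 CPM to 58.4, 56.7 and 55.2 CPM (-2.34 ± 0.11). The other mitochondrial carrier, YHM2 (YALI0B10736g), which exchanges citrate for 2-oxoglutarate, fell from 1772, 1409 and 1519 CPM to 452, 482 and 244 CPM (-1.996 ± 0.27). On the scale per length, CEX1 passed CTP1 between the phases: CEX1 went from 5.02 to 180.2 FPKM, CTP1 from 326 to 64.6 FPKM and YHM2 from 1674 to 419.6 FPKM. YHM2 remained the most abundant of the 3 at 32 h.

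**Figure D3:**
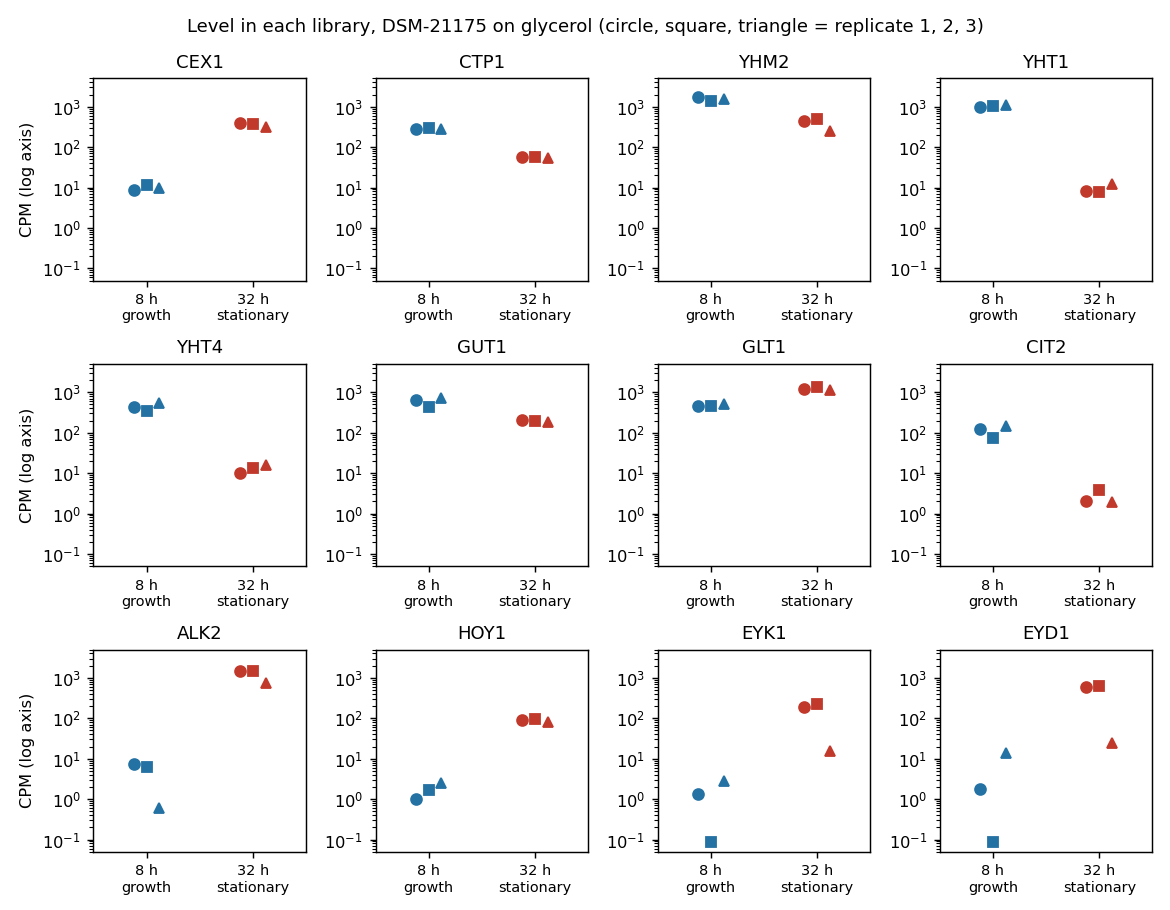
Level in each library (CPM, log axis) for 12 named genes in growth at 8 h (blue) and at 32 h (red), with a circle, square and triangle for replicates 1, 2 and 3; libraries at 0 would fall off the axis, and none of these genes has one. CEX1, ALK2 and HOY1 rise and YHT1, YHT4 and CIT2 fall with no overlap, while EYK1 and EYD1 show the wide scatter between replicates.

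Fatty acid synthesis was lowered at 32 h in 8 of 10 listed genes, with a median change of -0.90. Both subunits of ATP citrate lyase fell: ACL1 (YALI0E34793g) from 1863, 1855 and 1719.5 CPM to 471, 467 and 395 CPM (-2.03 ± 0.094) and ACL2 from 419, 374 and 432 CPM to 189.9, 185 and 155 CPM (-1.21 ± 0.11). The elongases ELO1 (-1.83 ± 0.21) and ELO2 (-1.53 ± 0.11) and the delta-12 desaturase FAD2 (-1.12 ± 0.15) were also lower. By contrast the stearoyl-CoA desaturase OLE1 rose from 1489 ± 213 to 2081 ± 231 CPM (0.48 ± 0.099), and the malic enzyme gene MAE1 rose from 51.6, 49.3 and 44.7 CPM to 91.3, 77.6 and 83.3 CPM (0.79 ± 0.11). Synthase and carboxylase genes changed less. FAS2 fell (-0.67 ± 0.17, adjusted p = 8.83e-04). The calls of FAS1 (-0.45 ± 0.16, adjusted p = 0.0144) and the acetyl-CoA carboxylase ACC1 (-0.33 ± 0.15, adjusted p = 0.0490) were each lost when 1 of several libraries was left out. FAS1 was not called without growth replicate 1, growth replicate 2 or stationary replicate 3 (adjusted p = 0.0575, 0.0522 and 0.0638), with changes of -0.39, -0.40 and -0.38. ACC1 was not called without growth replicate 1, stationary replicate 2 or stationary replicate 3 (adjusted p = 0.217, 0.0813 and 0.0833), with changes of -0.22, -0.33 and -0.33.

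Of 9 triacylglycerol genes 4 rose, 1 fell and 4 were not called. Their median change of 0.44 rested on single libraries, at 0.0557 without stationary replicate 3, 0.286 without growth replicate 1 and 0.718 without growth replicate 2. The acyltransferase DGA2 (YALI0D07986g), which forms triacylglycerol, rose from 83.2, 94.5 and 80.9 CPM to 178, 159.9 and 195 CPM (1.04 ± 0.091), and the phospholipid-using acyltransferase LRO1 rose by 0.67 on the log2 scale. The lipase genes TGL3 (YALI0D17534g) and TGL4, which release fatty acids from stored lipid, rose as well. TGL3 went from 15.5, 15.5 and 11.1 CPM to 80.1, 77.3 and 72.2 CPM (2.44 ± 0.13) and TGL4 from 50.9 ± 3.14 to 96.1 ± 5.14 CPM (0.91 ± 0.085). The other acyltransferase of the final step, DGA1, was not called, with 81.1, 79.8 and 99.3 CPM in growth and 76.2, 73.3 and 86.6 CPM at 32 h (-0.14 ± 0.099, adjusted p = 0.202). SCT1, which begins glycerolipid synthesis, was not called either (0.046 ± 0.071, adjusted p = 0.560). The phosphatidate phosphatase gene PAH1 was called lower (-0.40 ± 0.13) with overlapping phases, and lost its call without growth replicate 1 (adjusted p = 0.0527). Without growth replicate 2, the acyltransferase gene SLC1 was called lower (-0.37) and the sterol acyltransferase gene ARE1 higher (0.72), neither of which was called with all libraries. DGA1 was called lower without growth replicate 2 and stationary replicate 3 (-0.27, adjusted p = 0.0394).

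Peroxisomal beta-oxidation had the fewest calls for its size among the lists, with 2 of 12 genes higher, 3 lower and 7 not called, and a median change of -0.0022, which ranged from -0.195 to 0.0863 with 1 library left out. Of its acyl-CoA oxidase genes only POX2 rose. POX2 (YALI0F10857g), the oxidase for long-chain substrates, rose from 20.7, 15.5 and 16.1 CPM to 166, 198 and 134 CPM (3.25 ± 0.23, adjusted p = 2.95e-13). Among its paralogs, POX3 fell by 0.64 on the log2 scale and POX4 fell by 1.36, and POX5 and POX6 were not called, though POX6 was called lower without growth replicate 1 (-0.50, adjusted p = 0.0455). POX1 was called lower (-0.75 ± 0.27), a call lost without stationary replicate 3 (adjusted p = 0.107), growth replicate 2 (0.0527) or growth replicate 3 (0.0850). Near-identical family members can share reads, and how the counting treated them is not given in the sources used here. The multifunctional enzyme MFE1 (-0.20 ± 0.13), the thiolase POT1 (-0.059 ± 0.20) and the acyl-CoA synthetase FAA1 (0.055 ± 0.089) were not called, though MFE1 was called lower without stationary replicate 2 (-0.37). Of the peroxisomal acyl-CoA transporter subunits, PXA2 rose (0.68 ± 0.084) and PXA1 was not called (0.16 ± 0.090, adjusted p = 0.0978).

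The alkane-inducible cytochromes P450 of the ALK family, which hydroxylate alkanes or fatty acids, rose in 8 of 12 cases, with 2 lower, 2 not called and a median change of 1.39. Glycerol was the only carbon source supplied to these cultures. ALK2 (YALI0F01320g) made the largest rise, from 7.48, 6.24 and 0.599 CPM in growth to 1482, 1476 and 727 CPM at 32 h (7.97 ± 0.83, adjusted p = 4.08e-09). On the scale per length it reached 781 FPKM. Growth replicate 3 and stationary replicate 3 were the lowest of their groups, far apart from each other. ALK12 (YALI0A20130g) rose from 1.10, 1.05 and 0.719 CPM to 25.6, 25.4 and 22.4 CPM (4.64 ± 0.21), with close replicates, and ALK11 from 2.75, 3.25 and 1.56 CPM to 25.7, 29.7 and 28.2 CPM (3.43 ± 0.32). ALK5 and ALK6 rose by 1.85 and 1.34, and ALK4 by 0.66 on the log2 scale.

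ALK1 (YALI0E25982g) and ALK3 fell. ALK1, known as the main alkane-oxidising member, read 143, 151 and 69.3 CPM and then 35.8, 60.1 and 6.15 CPM (-1.83 ± 0.57, adjusted p = 0.00540), and the call was lost when the 6 libraries were fitted alone (adjusted p = 0.105) or when growth replicate 2 and stationary replicate 3 were left out (0.0738). ALK3 read 16.6, 15.99 and 38.6 CPM and then 4.11, 6.50 and 4.24 CPM (-2.25 ± 0.50). ALK7 was not called, at 7.26, 10.01 and 11.7 CPM in growth and 8.60, 10.5 and 10.02 CPM at 32 h (0.0067 ± 0.43, adjusted p = 0.992). The lowest members were close to the floor: ALK8 had 1 read in the growth libraries together and 17 at 32 h, a depth-corrected ratio of 12.2 (95% exact interval 1.92 to 511), and ALK10 had 3 and 12 reads (2.88, 0.777 to 15.9). ALK8 was called higher only with stationary replicate 2 included (adjusted p without it 0.0733), and ALK9 (1.17 ± 0.39) lost its call without growth replicate 2 (0.0599) or stationary replicate 3 (0.0572).

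Secreted enzymes went both ways. The acid protease gene AXP1 (YALI0B05654g) rose from 6.82, 10.1 and 5.87 CPM to 23.1, 23.0 and 23.0 CPM (1.58 ± 0.20), and the major extracellular lipase gene LIP2 (YALI0A20350g) fell from 91.2, 47.3 and 159 CPM to 9.21, 7.70 and 11.2 CPM (-3.40 ± 0.43, adjusted p = 1.00e-07). LIP8 was not called (-0.13 ± 0.72, adjusted p = 0.877). LIP7 had 1 read in growth and 25 at 32 h, a depth-corrected ratio of 18.0 (95% exact interval 2.95 to 739), and lost its call without any single library other than stationary replicate 3. The count for the 4 genes was 2 higher, 1 lower and 1 not called, with a median of 0.73. With the 6 libraries fitted alone, where LIP7 did not pass the filter on low counts, the median was -0.0835, with 1 gene higher and 1 lower.

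Nitrogen assimilation genes moved in both directions. Glutamate synthase GLT1 (YALI0B19998g), which makes glutamate from glutamine, rose from 462, 449 and 502 CPM to 1195, 1337 and 1154 CPM (1.38 ± 0.16, adjusted p = 4.32e-09). The NADP-dependent glutamate dehydrogenase GDH1, the direct route from ammonium, fell from 1448, 1100.5 and 1283 CPM to 789.7, 838 and 878 CPM (-0.61 ± 0.15), and the catabolic dehydrogenase GDH2 fell by 0.50 on the log2 scale. Glutamine synthetase GLN1 read 1167, 994 and 1119 CPM and then 1858, 2215 and 1155 CPM (0.67 ± 0.20). Stationary replicate 3 of GLN1 lay at the growth level, and without stationary replicate 2 the gene was not called (adjusted p = 0.0534). AMP deaminase, whose activation under nitrogen limitation belongs to the textbook account, was higher by 0.43 ± 0.12 and lost its call without stationary replicate 3 (0.0683). This list counted 3 genes higher and 2 lower, with a median of 0.43, which was 0.26 without stationary replicate 3.

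Among the 71 symbols of the deposited log2 table, mostly transcription factors, 33 were higher, 20 lower and 18 not called, with a median change of 0.25. The submitters chose these genes, possibly on these libraries, so their counts give no independent evidence on direction. Of the 5 GATA-type factors GZF1 to GZF5, a class that in fungi governs nitrogen use, 4 were called higher and 1 was not called. GZF1 (YALI0D20482g) rose from 4.18, 2.90 and 3.60 CPM to 88.5, 74.4 and 110.2 CPM (4.69 ± 0.37, adjusted p = 1.06e-11). GZF3 (YALI0C22682g) rose from 36.6, 43.0 and 52.2 CPM to 314, 280.2 and 347 CPM (2.84 ± 0.14), and GZF5 from 13.1 ± 1.66 to 58.5 ± 4.60 CPM (2.17 ± 0.12). GZF4 was not called (0.00083 ± 0.15), and GZF2 was called higher (0.51 ± 0.16) except without stationary replicate 3 (adjusted p = 0.101).

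Of 6 listed regulators of morphology, ambient pH and carbon catabolite repression, 4 rose, 1 fell and 1 was not called, with a median of 0.54. Without growth replicate 3 the median was 0.871, with 5 higher and 0 lower. Without growth replicate 2 and stationary replicate 3 it was 0.368, with 3 higher and 2 lower. HOY1 (YALI0A18469g), a homeobox gene needed for hyphae in Y. lipolytica, rose from 0.990, 1.67 and 2.52 CPM to 89.1, 95.5 and 81.9 CPM (5.70 ± 0.20, adjusted p = 2.46e-20). MHY1, a zinc finger gene of the yeast-to-hypha switch, was scattered and not called, at 23.0, 9.31 and 52.2 CPM in growth and 16.2, 26.1 and 38.6 CPM at 32 h (-0.048 ± 0.37, adjusted p = 0.911). Without growth replicate 3 it was called higher (0.75, adjusted p = 0.0414), and without growth replicate 2 and stationary replicate 3 it was called lower (-0.83, adjusted p = 0.0204). RIM101 (YALI0B13640g), the ambient-pH factor, rose from 81.2, 65.6 and 82.7 CPM to 301, 251 and 368 CPM (2.004 ± 0.13) although both groups were held at pH 5.5. MIG1, the glucose repressor, rose by 0.76 (adjusted p = 0.0672 without growth replicate 2 and stationary replicate 3) and the kinase gene SNF1 by 0.33 on the log2 scale. TUP1, a co-repressor, was called lower (-0.23 ± 0.092) with overlapping phases. It was not called without growth replicate 3 (adjusted p = 0.209), stationary replicate 1 (0.0539) or stationary replicate 2 (0.0531).

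The 3 largest falls among the 71 symbols were those of SWI5, YOX1 and AZF1, whose roles are known from Saccharomyces cerevisiae. SWI5 (YALI0E16973g), there an activator of genes at the end of mitosis, dropped from 89.1, 81.3 and 99.4 CPM to 4.26, 4.23 and 2.49 CPM (-4.62 ± 0.17, adjusted p = 7.02e-20). YOX1 (YALI0E20449g), there a repressor acting at the same boundary, dropped from 80.8, 63.1 and 81.3 CPM to 7.08, 6.42 and 4.68 CPM (-3.63 ± 0.20). MBP1, there part of the factor for DNA synthesis genes, fell by 0.49 on the log2 scale, and MCM1, there a partner of many cell cycle factors, rose by 0.77. AZF1, there a carbon-responsive factor, fell from 9.35, 10.4 and 6.71 CPM to 0.685, 0.378 and 1.17 CPM (-3.55 ± 0.47).

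RPN4, HAC1 and OPI1 rose. RPN4 (YALI0F25861g), in S. cerevisiae the activator of proteasome genes, went from 254, 223 and 184 CPM to 1334, 1233 and 1356 CPM (2.57 ± 0.12, adjusted p = 7.03e-18). HAC1, the effector of the unfolded protein response, rose from 187, 212 and 170.2 CPM to 608, 573 and 671 CPM (1.70 ± 0.099). OPI1, in S. cerevisiae a repressor of phospholipid synthesis, read 64.3, 24.5 and 40.0 CPM and then 246, 238 and 202 CPM (2.42 ± 0.24), with growth replicate 2 the lowest library. GCN4, a regulator of amino acid genes, was called lower by a small step (-0.28 ± 0.11). That call was lost without growth replicate 2 (adjusted p = 0.0926) or stationary replicate 1 (0.0961). ARG81, in S. cerevisiae a regulator of arginine genes, fell further, by 1.47 on the log2 scale.

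Genes without a name held the largest changes of all. YALI0B13794g had 0, 0 and 2 reads in the growth libraries and 14254, 15974 and 11975 reads at 32 h, a depth-corrected ratio of 15190.0 with a 95% exact interval of 4204 to 125400.0. YALI0A00110g had 2, 2 and 0 reads and then 20132, 22147 and 27166 reads. In the other direction, YALI0B16522g fell from 1077, 1044 and 1444 CPM to 0.457, 0.604 and 0.951 CPM (-10.77 ± 0.34), and YALI0F19866g fell from 512, 505 and 446 CPM to 0.837, 0.982 and 0.0732 CPM (-9.59 ± 0.46). For all 4 genes the phases were far apart in every library. Of 227 tested noncoding tags 36 were higher, 27 lower and 164 not called. Their share of reads was 0.0581 to 0.0758% in growth and 0.0932 to 0.112% at 32 h in these poly(A)-selected libraries. Of 15 mitochondrial tags 4 were lower and 11 not called, with a share of 0.0076 to 0.0304% in growth and 0.0026 to 0.0069% at 32 h.

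The same change with phase was then measured in DSM-3286 on glycerol, sampled at the same hours and pH, and the difference between the strains was tested gene by gene. The difference was called for 3338 genes (51.1%), 1738 with a higher change in DSM-21175 (26.6%) and 1600 with a lower one (24.5%). Among called differences of at least 2-fold, 953 were lower in DSM-21175 (14.6%) and 433 higher (6.62%). Scaled by relative log expression instead, 1517 differences were higher and 1774 lower. Separately, 3845 genes were called in the same direction in both strains and 355 in opposite directions, of which 145 rose in DSM-21175 and fell in DSM-3286 and 210 did the reverse. No library was shared between the sides of this comparison.

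Genes of lipid breakdown mostly rose further in DSM-3286. In DSM-3286 5206 genes were called with phase (79.6%), 2626 of them higher (40.2%). All 12 beta-oxidation genes were called higher there against 2 in DSM-21175, and 9 of the 12 had a called lower change in DSM-21175, with a median difference of -1.58. POX5 (YALI0C23859g) showed the widest gap of this list: it went from 0.617 ± 0.208 to 56.0 ± 2.19 CPM in DSM-3286 (6.34 ± 0.44) but from 24.7 ± 12.2 to 28.5 ± 1.18 CPM in DSM-21175 (0.22 ± 0.29), a difference of -6.12 ± 0.55 (adjusted p = 8.98e-10). For POX2 the sign was reversed, with the larger rise in DSM-21175 (difference 1.04 ± 0.30). Of the ALK genes, 8 of 12 differed downward and 1 upward. ALK7 (YALI0A15488g) rose from 7.49 ± 0.728 to 9165 ± 415 CPM in DSM-3286, while in DSM-21175 it was not called, the largest strain difference of any named gene (-10.24 ± 0.67). ALK2 was the upward one. In DSM-3286 it went from 64.7 ± 1.59 to 161 ± 10.9 CPM. Despite the small scatter there, this change was not called in the fit to all 35 libraries (1.32 ± 0.61, adjusted p = 0.0519). The rise of ALK2 was larger in DSM-21175 by 6.66 ± 0.97 (adjusted p = 3.92e-06). In growth, ALK2 was already higher in DSM-3286 than in DSM-21175, and POX5 was lower. The differences of ALK2 and POX5 thus include the growth level as well as the stationary one. ALK1 and ALK3 fell in DSM-21175 and rose in DSM-3286, with differences of -4.15 and -4.96.

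Citrate and sugar transport also separated the strains. CEX1 rose further in DSM-3286, from 11.1 ± 1.92 to 9902 ± 21.4 CPM (9.80 ± 0.37), a difference of -4.64 ± 0.39 (adjusted p = 2.49e-10). The stationary level of CEX1 in DSM-21175 was 364 ± 43.8 CPM. YHM2 fell in DSM-21175 and was not called in DSM-3286 (-1.996 against 0.46, difference -2.46 ± 0.38), and CTP1 fell further in DSM-3286 (difference 0.95 ± 0.16). YHT1 changed by -6.81 in DSM-21175 and by -1.24 in DSM-3286, where it read 71.2 ± 11.3 CPM at 32 h (difference -5.57 ± 0.75). CIT2 (YALI0E00638g) showed the same contrast, -5.47 against -1.05, with 15.1 ± 6.21 CPM at 32 h in DSM-3286 (difference -4.42 ± 0.41). By these values YHT1 and CIT2 were already lower in growth in DSM-3286 than in DSM-21175. Both differences thus include the growth level as well as the stationary one.

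Changes of glycolysis and fatty acid synthesis were mostly lower in DSM-21175. In 10 of 14 glycolytic and gluconeogenic genes the change was lower in DSM-21175, and in 0 was it higher. TDH1 fell in DSM-21175 and rose in DSM-3286 (-1.15 against 0.70, difference -1.84 ± 0.13), and PGI1 fell in DSM-21175 and was not called in DSM-3286 (-1.51 against -0.011, difference -1.50 ± 0.20). For fatty acid synthesis 9 of 10 genes differed downward: FAS1 changed by -0.45 against 1.42 (difference -1.88 ± 0.23) and ELO1 by -1.83 against 0.41 (difference -2.25 ± 0.29). DGA1, not called in DSM-21175, rose by 2.15 in DSM-3286 (difference -2.29 ± 0.14). GLT1 rose by 1.38 and 1.36, and its difference (0.019 ± 0.22, adjusted p = 0.957) was not called.

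Upward differences included regulators and 2 erythritol genes. GZF1 rose by 4.69 in DSM-21175 and by 1.09 in DSM-3286 (difference 3.59 ± 0.46, adjusted p = 5.26e-07), and HOY1 by 5.70 and 3.68 (difference 2.02 ± 0.26). REI1 rose in DSM-21175 and fell in DSM-3286 (0.76 against -0.65, difference 1.42 ± 0.18), and OTU1 rose in DSM-21175 with no call in DSM-3286 (difference 1.53 ± 0.13). MHY1, not called in DSM-21175, rose in DSM-3286 by 2.74 (difference -2.79 ± 0.51, adjusted p = 6.51e-05). SWI5 also went the other way, with -4.62 against -0.46 (difference -4.16 ± 0.21). EYI1 rose more in DSM-21175 (difference 2.37 ± 0.46, adjusted p = 1.32e-04), and so did EYK1 (difference 3.07 ± 1.07, adjusted p = 0.0195). The EYK1 difference was not called without growth replicate 2 of DSM-21175 (adjusted p = 0.0767), stationary replicate 2 of DSM-21175 (0.0616) or growth replicate 1 of DSM-3286 (0.0569), nor when these 12 libraries were fitted alone (0.144). For EYI2 and EYD1 it was not called (adjusted p = 0.0933 and 0.187).

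**Figure D4:**
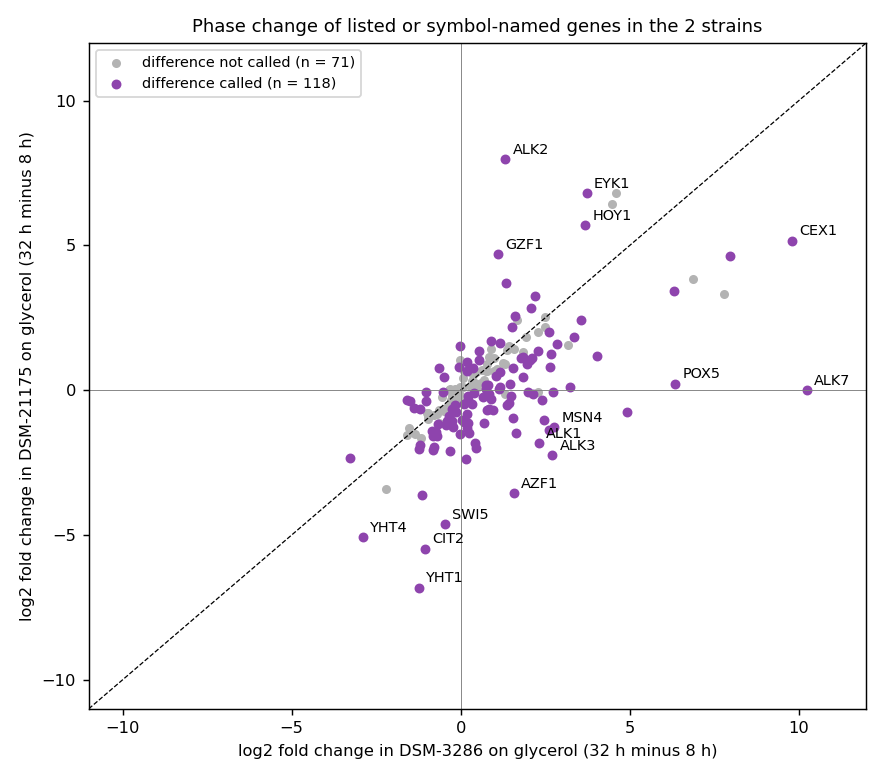
Log2 fold change with phase in DSM-21175 (vertical axis) against that in DSM-3286 (horizontal axis), both on glycerol (32 h minus 8 h), for 189 listed or symbol-named genes, purple where the difference was called (n = 118) and grey where not (n = 71); the dashed line marks equal change. ALK7, POX5 and CEX1 lie far right of the line, and ALK2, GZF1 and EYK1 lie above it.

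Within DSM-21175, the change on glycerol was set against that on glucose, where growth was sampled at 12 h instead of 8 h, so that carbon source and sampling hour cannot be told apart. The difference was called for 1966 genes (30.1%), 833 with a higher change on glycerol (12.7%) and 1133 with a lower one (17.3%). At least 2-fold differences numbered 317 higher (4.85%) and 240 lower (3.67%). Fitting these 12 libraries alone gave 1280 calls, 488 higher and 792 lower. On glucose 4728 genes were called with phase (72.3%). Directions were largely shared, with 4015 genes called the same way on both carbon sources and 153 called in opposite ways. This comparison and the one between strains share the 6 glycerol libraries of DSM-21175.

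Of the 10 erythritol and mannitol genes 4 had a higher change on glycerol and 6 were not called. EYI2 rose by 6.82 on glycerol and by 1.38 on glucose, where it reached 45.3 ± 14.4 CPM at 32 h (difference 5.44 ± 1.03, adjusted p = 2.56e-04). EYK1 rose by 6.801 and 2.51 (difference 4.29 ± 1.09, adjusted p = 0.00404), EYD1 by 6.43 and 2.44 (difference 3.98 ± 1.22) and EYI1 by 3.70 on glycerol with no call on glucose (0.65 ± 0.32; difference 3.05 ± 0.47). With these 12 libraries fitted alone the differences of EYK1 and EYD1 were not called (adjusted p = 0.0597 and 0.123), whereas without growth replicate 3 on glycerol they were larger (5.27 and 6.50). DAK2 rose on glycerol and fell on glucose (2.52 against -1.63, difference 4.14 ± 0.86).

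PCK1 and GPD1 differed downward and GLT1 and RIM101 upward. PCK1 fell on glycerol and was not called on glucose (-2.11 against 0.40), a difference of -2.51 ± 0.29 (adjusted p = 3.00e-07), from 136 ± 23.5 to 31.5 ± 9.42 CPM on glycerol and from 106 ± 12.3 to 140.2 ± 44.5 CPM on glucose. GPD1 likewise fell on glycerol and was not called on glucose (-0.77 against 0.20, difference -0.97 ± 0.14), and ARO80, in S. cerevisiae an activator of aromatic amino acid breakdown, fell further on glycerol (-1.58 against -0.37, difference -1.21 ± 0.23). GLT1 rose on glycerol and not by call on glucose (1.38 against 0.12, difference 1.26 ± 0.22), where growing cells read 1190.4 ± 428 CPM. RIM101 rose further on glycerol (2.004 against 0.82, difference 1.18 ± 0.17).

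Lipase and cytochrome genes supplied further large differences. LIP8, not called on glycerol, fell on glucose from 643 ± 557 to 15.5 ± 4.57 CPM (-5.37 ± 0.77), a difference of 5.24 ± 1.01 (adjusted p = 3.02e-04). ALK3 fell less on glycerol than on glucose (difference 2.15 ± 0.67), a call lost without stationary replicate 2 on glycerol (adjusted p = 0.0572) and with these 12 libraries fitted alone (0.137). Without stationary replicate 3 on glucose the ALK3 difference was 3.57. ALK11 rose more on glycerol (difference 1.93 ± 0.41), and GZF1 likewise (difference 1.99 ± 0.48). Without growth replicate 1 on glucose the GZF1 difference was 1.16, and it was not called with the 12 libraries fitted alone (adjusted p = 0.0848). Likewise, without growth replicate 3 on glucose, the ALK11 difference was 1.23. For several genes with strong changes on glycerol no difference was called: CEX1 (0.49 ± 0.39, adjusted p = 0.372), ALK2 (0.34 ± 0.96, adjusted p = 0.834), YHT1 (-0.97 ± 0.71, adjusted p = 0.328), YHT4 (0.15 ± 0.29, adjusted p = 0.745) and CIT2 (-0.85 ± 0.40, adjusted p = 0.114). Of these, the SEs of all but YHT4 leave room for a 2-fold difference, as far as such approximate SEs can tell.

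**Figure D5:**
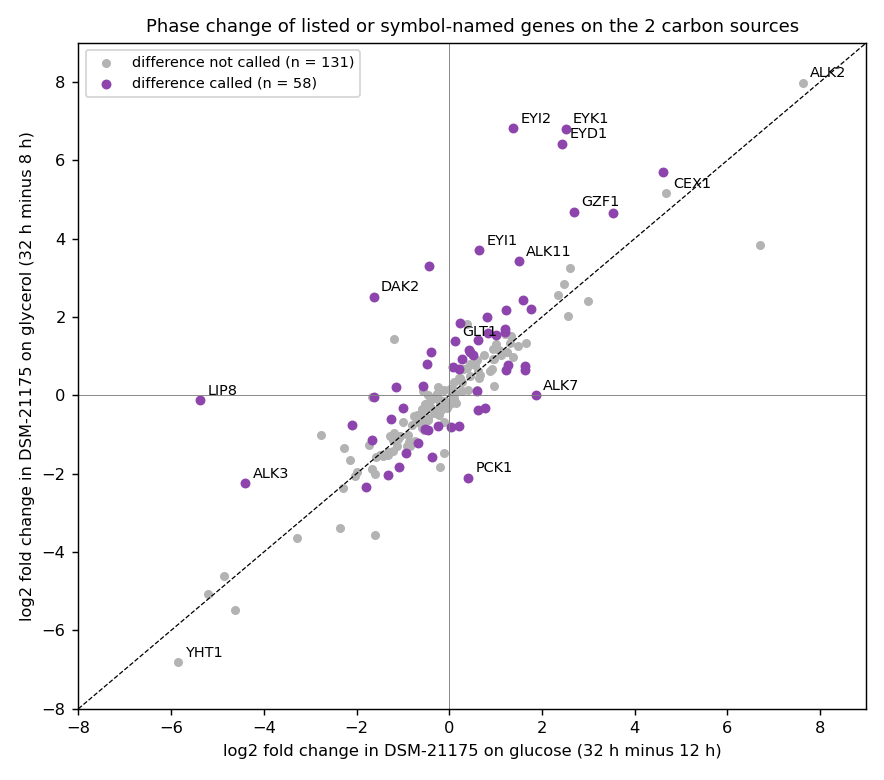
Log2 fold change with phase in DSM-21175 on glycerol (32 h minus 8 h, vertical axis) against that on glucose (32 h minus 12 h, horizontal axis) for 189 listed or symbol-named genes, purple where the difference was called (n = 58) and grey where not (n = 131); the dashed line marks equal change. The erythritol genes EYI2, EYK1, EYD1 and EYI1 lie above the line, LIP8 and ALK3 lie above it on the left, and PCK1 lies below it.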

How the data were processed

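RNA from bioreactor samples was extracted with beads and columns, poly(A)-selected and made into strand-specific libraries, per the labels' protocols. The deposited count table holds whole-number read counts for 7132 genes in 35 libraries, made by the authors without normalization, per the file headers. Tools listed in the submitters' processing notes are edgeR, featureCounts 1.5.1 and BWA 0.7.12-r1039. What each did, and the build and strand option used, is not given in the sources used here. A second deposited table holds log2 values of FPKM plus 1 by the authors, and 71 of its genes carry symbols, each paired with a locus tag by its values over the libraries. Genome positions were not used here.

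From the counts, 6537 genes passed edgeR's filter on low counts in the 12 groups (6295 coding, 227 noncoding, 15 mitochondrial), and edgeR 4.0.16 in R 4.3.3 was fitted to all 35 libraries (robust quasi-likelihood, TMM scaling, 23 residual degrees of freedom). The biological coefficient of variation was 14.8%. FPKM here are group means computed from the counts and the deposited gene lengths. Differences between strains and between carbon sources are interaction contrasts of the same fit. Genes with at most 10 reads in a group also got a ratio of reads with an exact binomial 95% interval from scipy 1.17.1. Figures used matplotlib 3.10.9 and Python 3.11.15. Calculations were tested on simulated data.

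The comparison, the 15 gene lists and the tests were chosen with earlier results of these data known. Named genes are, per list, the called members with the largest changes (at most 4), 10 fixed genes (GUT1, GUT2, GPD1, CEX1, DGA1, EYK1, SDR2, AXP1, RIM101 and MHY1), the largest changes among named and unnamed genes with mean log2 CPM of 3 or more and no overlap, and up to 8 genes of each sign per difference. Other genes named were chosen after their values were seen. Lists of genes by product description were not analysed here. Alternatives were relative log expression (RLE) scaling, no filter, DESeq2 1.42.0, limma 3.58.1 on the deposited log2 values, fitting only the libraries compared, that with a replicate block, each replicate left out in turn, and growth replicate 2 with stationary replicate 3 left out.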

Additional observations from a re-analysis of the deposited data

Results flagged for a closer look

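The change with phase in DSM-21175 on glycerol differed from that in DSM-3286 for 3338 genes, and from that on glucose for 1966 genes, each by a test of the difference itself. The values below are log2 differences of the 2 changes for the named genes with the largest called differences among those with a mean log2 CPM of 3 or more over the 6 libraries. No cause was tested for any of them.

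Between the strains, the change was higher in DSM-21175 for ALK2 (6.66), GZF1 (3.59), EYK1 (3.07), EYI1 (2.37), HOY1 (2.02), OTU1 (1.53), REI1 (1.42) and TFC2 (1.27). It was lower for ALK7 (-10.24), POX5 (-6.12), YHT1 (-5.57), ALK3 (-4.96), CEX1 (-4.64), CIT2 (-4.42), SWI5 (-4.16) and ALK1 (-4.15). Below that level, POX1 (-5.67) and AZF1 (-5.12) also had lower changes. TFC2 fell in DSM-3286 (-1.60) and was not called in DSM-21175 (-0.33), where it was called lower without growth replicate 2 (-0.56) or stationary replicate 3 (-0.54).

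Between carbon sources, the change was higher on glycerol for EYI2 (5.44), LIP8 (5.24), EYK1 (4.29), EYD1 (3.98), EYI1 (3.05), ALK3 (2.15), GZF1 (1.99) and ALK11 (1.93). Below that level, DAK2 (4.14) and ALK8 (3.74) were higher, ALK8 on few reads and with an adjusted p of 0.0416. The change was lower on glycerol for PCK1 (-2.51), ALK7 (-1.86), ARO80 (-1.21), TFC2 (-1.09), BUD20 (-0.99), ALK4 (-0.98), GPD1 (-0.97) and MIG1 (-0.88). The ALK7 difference was not called without growth replicate 3 on glycerol (adjusted p = 0.0525) or stationary replicate 3 on glucose (0.203), where it was -0.45, and that of MIG1 not without growth replicate 3 on glycerol (0.0624). With the 12 libraries fitted alone, the differences of EYK1, EYD1, ALK3, GZF1, ALK7 and MIG1 were not called (adjusted p = 0.0597, 0.123, 0.137, 0.0848, 0.155 and 0.0737).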

How the results depend on the processing

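For the change with phase, the counts of genes called higher and lower kept within 1.5 times of the values reported under every alternative run, with 2279 to 2525 higher and 2253 to 2539 lower over the alternatives that keep all replicates. Leaving out 1 replicate at a time gave 2296 to 2377 higher and 2482 to 2567 lower. Deviations of same-numbered libraries from their group means correlated at 0.0752, -0.0828 and -0.138, and those of differently numbered libraries at -0.144 to 0.163. With 3 libraries a group, these values cannot settle whether a growth and a stationary library came from the same reactor run. With the replicate block, fitted to the 6 libraries alone, 4532 genes were called, against 4608 without it in the same libraries, and EYI2 and EYD1 were not called. For the difference between carbon sources, genes called higher fell to 488 with only the libraries compared and to 520 with the replicate block added, where fewer libraries estimate the spread. RLE scaling moved the share of strain differences that were higher from 52.1 to 46.1%.

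MHY1 was the only named gene to reverse, called higher at 0.7519 without growth replicate 3. With 1 replicate left out its values went down to -0.4748, without growth replicate 2. MHY1 was called lower without growth replicate 2 and stationary replicate 3, so its direction is not settled. Without growth replicate 2 and stationary replicate 3, the fatty acid synthesis median was -1, the calls of HXK1, FAS1, ACC1, POX1, ALK1, ALK9, LIP7, MLS2, MIG1 and GZF2 were lost, and KGD1, KGD2, LSC1, SLC1 and DGA1 were called lower. On the deposited log2 values, where adding 1 compresses low genes, the ALK median was 0.617 and the extracellular enzyme median 0.235; the latter was -0.0835 with the 6 libraries alone and -0.0408 with the replicate block. The causes of the other shifts were not tested. Depth limits what can be said of YHT2, ALK8, ALK10 and LIP7, which had few reads.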
